A study of Bos taurus with 12 samples.

Results

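The whey protein genes LALBA (alpha-lactalbumin, ENSBTAG00000005859) and PAEP (beta-lactoglobulin, ENSBTAG00000014678) were followed in milk fat RNA of 6 Holstein cows in early lactation. They are 2 of the 24616 gene rows of the count table and were chosen by Ensembl cattle gene ID. Each cow gave 1 control library and 1 library with lysine supplied postruminally, that is, past the rumen and its microbes, which makes 6 control and 6 lysine libraries. The label of the lysine samples gives a duration of 63 days, while the titles carry only the codes 0 and 63. The sample descriptions add 2 codes that the labels do not explain: B, which is 1 in 3 cows and 2 in the other 3, and P, which runs from 1 to 4 and is never the same in both libraries of an animal. RNA came from the fat layer of milk, whose globules enclose some cytoplasm of the secretory cells. A smaller number of those cells and less RNA per cell cannot be told apart in such samples.

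Whey proteins are the milk proteins that stay in solution when casein curdles. Alpha-lactalbumin is made almost only by lactating mammary epithelium, where it binds the galactosyltransferase of the Golgi to form lactose synthase. Lactose draws water into milk, so the protein takes part in setting milk volume. Beta-lactoglobulin, a lipocalin that binds small hydrophobic molecules, is the main whey protein of cow's milk and is absent from human milk; its gene carries the symbol PAEP after the human progestagen-associated endometrial protein.

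Both genes were among the most abundant in every library, in accord with the labelled source of the RNA. PAEP ranked between 2 and 5 by counts, and LALBA ranked 7 in 11 of the 12 libraries and 6 in the lysine library of cow 4381. By mean share of counts over the 12 libraries PAEP was the fourth and LALBA the seventh gene. Library totals ran from 5.45 to 56.6 M counts (M stands for the metric prefix mega), so even the smallest count of the pair, 148303 for LALBA in the lysine library of cow 4319, left little counting error. The widest 95% Wilson interval of any share below spanned 0.048 percentage points. Such intervals cover counting error only, because no molecular identifiers are named and reads of 1 molecule cannot be told from reads of several.

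PAEP took a mean of 7.76 ± 2.36% of all counts (SD, n = 12 libraries). In control libraries its share was lowest at 6.37%, had a median of 8.90% and was highest at 10.5%. In lysine libraries the lowest, median and highest shares were 3.97%, 5.76% and 10.5%. The groups overlapped, and 3 of the 6 lysine libraries lay below the lowest control.

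LALBA took 2.68 ± 0.52% of all counts (SD, n = 12). Its control shares had a lowest value of 2.53%, a median of 2.97% and a highest of 3.44%. The lysine shares had a lowest value of 1.79%, a median of 2.46% and a highest of 2.99%. Here too the groups overlapped, and LALBA was the narrower of the pair, with a highest share 1.93 times the lowest against 2.65 times for PAEP. Counts were not divided by transcript length, so these shares order reads and not transcripts of the 2 genes.

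**Figure D1:**
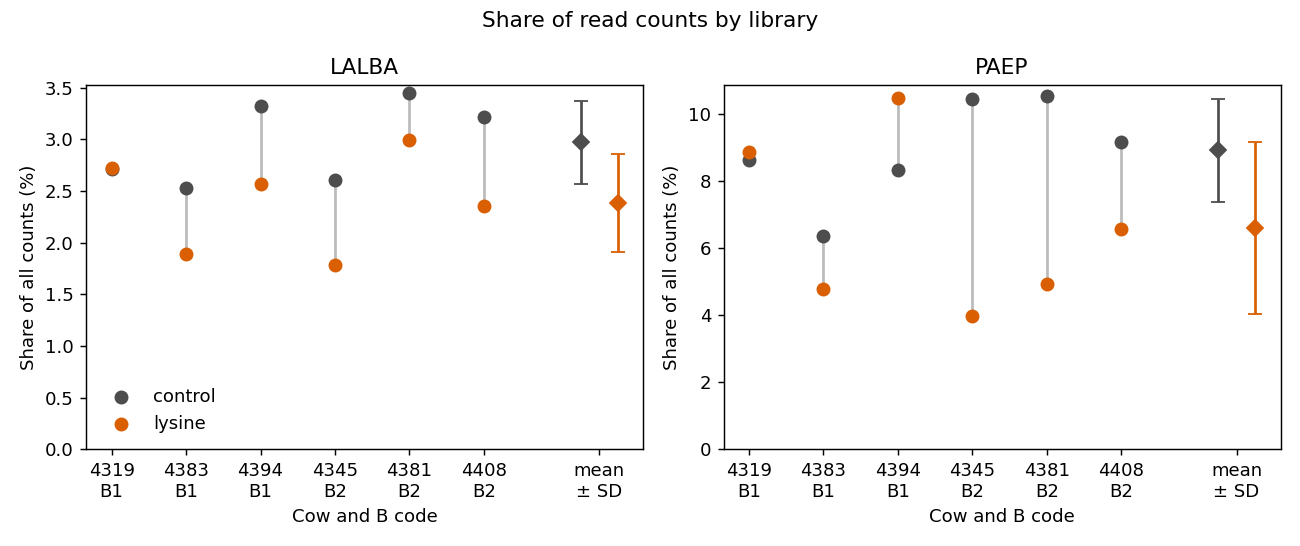
Share of all read counts (percent, vertical axis) of LALBA and PAEP in the control and lysine library of each cow, ordered by B code; diamonds with bars are group means ± SD (n = 6). The PAEP share was lower with lysine in 4 cows, by most in cows 4345 and 4381, and the LALBA share in 5 cows.

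Within cows, the PAEP share differed most in cow 4345, at 10.4% in the control and 3.97% in the lysine library, and in cow 4381, at 10.5% and 4.93%. In cow 4408 it was 9.15% in the control and 6.58% in the lysine library, and in cow 4383 it was 6.37% and 4.79%. Cow 4394 went the other way, at 8.34% and 10.5%, and cow 4319 was nearly level at 8.64% and 8.86%. The direction of PAEP thus differed between animals, and the mean log2 change of its share was -0.50 ± 0.27 (SE, 6 cows).

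LALBA shares were lower with lysine in 5 of 6 cows. The pairs were 2.60% and 1.79% in cow 4345, 3.44% and 2.99% in cow 4381, 2.53% and 1.89% in cow 4383. In cow 4394 they were 3.32% and 2.57%, in cow 4408 3.22% and 2.36%, and in cow 4319 the control and lysine shares were level at 2.71% and 2.72%. The mean log2 change of the LALBA share was -0.33 ± 0.08 (SE, 6 cows), a smaller spread between cows than for PAEP. By library totals the median log2 fold change of all tested genes was itself -0.26. How many genes had a lower share in 5 cows was not counted. In the edgeR fit with library totals as the scaling, neither gene passed the threshold (unadjusted p = 0.251 for LALBA and 0.104 for PAEP, 6 cows). The SEs of that fit were 0.28 for LALBA and 0.30 for PAEP. They come from the model, so the p of LALBA does not measure the narrower spread of its share changes over the cows. The share changes by themselves were not tested. Together the pair held 11.9 ± 1.75% of control counts and 8.99 ± 2.83% of lysine counts (mean ± SD, n = 6 each).

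A share of counts also moves when another abundant gene takes up more of the library. The second most abundant gene, which could not be named, held as little as 3.65% of a library and as much as 45.8%, the latter with lysine in cow 4383. With that gene taken out of the total, LALBA was lower with lysine in 4 cows instead of 5, at a mean log2 change of -0.15 ± 0.09 (SE, 6 cows), and PAEP was lower in 4 cows, at -0.32 ± 0.24. How far this gene accounts for the lower shares was not tested.

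Scaling by the trimmed mean of M values (TMM), which sets library sizes so that most genes do not change, gave a different picture for some cows. In TMM-normalised CPM (counts scaled to a common library size), LALBA measured 27315 ± 7256 in control and 29015 ± 14630 in lysine libraries (mean ± SD, n = 6 each). PAEP measured 82371 ± 24781 in control and 74725 ± 27301 in lysine libraries on the same scale. The spread within each group was wider than either difference.

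The largest effect of the scaling was in cow 4383, whose TMM factor was 1.24 in the control and 0.44 in the lysine library. LALBA there went from 20405 to 42535 normalised CPM and PAEP from 51507 to 107843, although both shares of counts were lower with lysine. In cow 4319 both genes were lower with lysine after TMM, by log2 changes of -0.41 for LALBA and -0.38 for PAEP, and level by share. In cow 4381 LALBA was higher after TMM (0.41) and lower by share (-0.20). PAEP in cows 4345, 4381 and 4408 was lower on every scale, with TMM log2 changes of -1.52, -0.49 and -0.46, and in cow 4394 it was higher on every scale (0.60 after TMM).

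**Figure D2:**
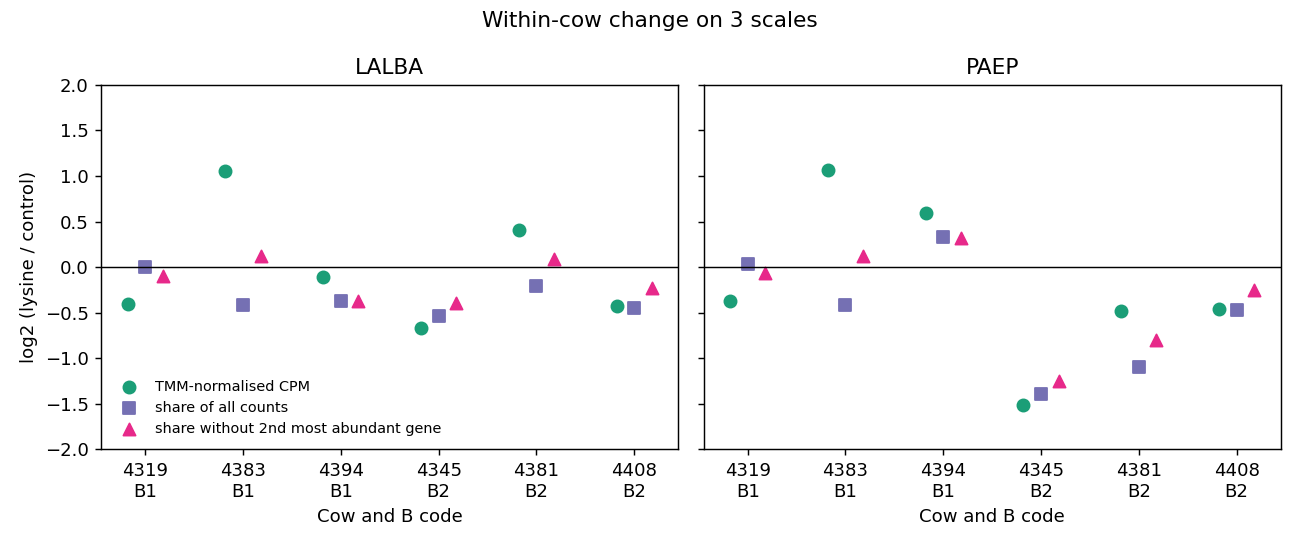
Log2 ratio of the lysine to the control library of each cow for LALBA and PAEP, on the scale of TMM-normalised CPM (circles), of the share of all counts (squares) and of the share without the second most abundant gene (triangles). The 3 scales part most in cow 4383, where the TMM change was 1.06 for LALBA and 1.07 for PAEP while both shares of all counts were lower, and PAEP was below 0 on all 3 scales in the 3 B2 cows.

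Neither gene passed the test of lysine against control with each cow as its own control. The log2 fold change of LALBA was -0.03 ± 0.28 (SE, 95% interval -0.63 to 0.57), lower in 4 of 6 cows (edgeR quasi-likelihood test with Benjamini-Hochberg adjustment over all genes, unadjusted p = 0.915, adjusted p = 1). That of PAEP was -0.20 ± 0.34 (95% interval -0.94 to 0.54), also lower in 4 of 6 cows (edgeR, unadjusted p = 0.572, adjusted p = 1). Of 11323 genes tested, 0 (0%) were called by edgeR; 286 (2.53%) had an unadjusted p under 0.05, DESeq2 called 0 with 543 such genes, and the median log2 fold change of all tested genes was 0.04. Being lower in 4 or more cows was common, at 34.5% of tested genes. Neither of these intervals reached a 2-fold change in either direction. The lower limit of PAEP did pass it with library totals as scaling (-1.11) and without cow 4383 (-1.13) or cow 4394 (-1.17), among other alternatives.

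The direction of these estimates hung on single animals. Without cow 4345 the log2 fold change of PAEP was 0.07 and that of LALBA 0.11. Without cow 4383 they were -0.45 and -0.24. LALBA was also above 0 without cow 4319 (0.049) and without cow 4408 (0.066). Without cow 4394, whose control library had the fewest genes detected (10687), they were -0.37 and -0.01. Scaled by library totals alone, PAEP was at -0.50 and LALBA at -0.33, while the median of all genes moved from 0.04 to -0.26. Relative to that median LALBA was at -0.066 with TMM and -0.069 with totals, and PAEP at -0.23 and -0.24.

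The ratio of PAEP to LALBA counts within a library needs no scaling between libraries and no gene length when libraries are compared. It was 2.89 ± 0.70 (SD, n = 12) and reached its extremes in lysine libraries, 1.65 in cow 4381 and 4.08 in cow 4394, a range of 2.48 times. The largest counting error of a log2 ratio was 0.0043, far below that range. Control libraries ran from 2.51 to 4.01 with a median of 2.95, and lysine libraries from 1.65 to 4.08 with a median of 2.66.

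The cows fell unevenly in how far this ratio moved. In 3 cows it was almost the same in both libraries, at 3.18 in the control and 3.25 in the lysine library of cow 4319, 2.52 and 2.54 in cow 4383, and 2.84 and 2.79 in cow 4408. In cow 4345 it was 4.01 in the control and 2.22 with lysine. In cow 4381 it was 3.06 and 1.65, and in cow 4394 it was 2.51 and 4.08. The 3 cows with a large shift therefore did not share a direction, and cow 4383, whose shares and normalised levels disagreed most, kept its ratio.

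**Figure D3:**
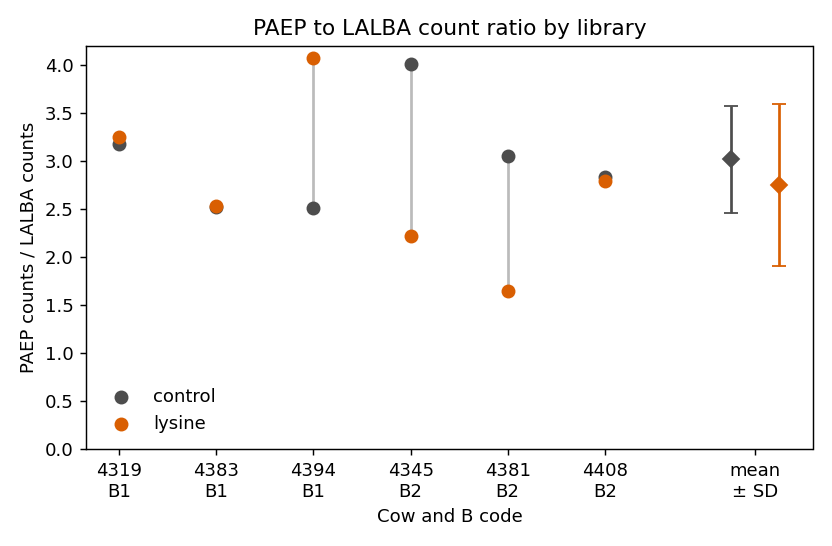
Ratio of PAEP to LALBA read counts (vertical axis, no unit) in the control and lysine library of each cow, ordered by B code; diamonds with bars are group means ± SD (n = 6). The 2 libraries of cows 4319, 4383 and 4408 nearly coincide, while cow 4394 was higher and cows 4345 and 4381 were lower with lysine.

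Over the 6 cows the log2 ratio changed by a mean of -0.17 ± 0.25 (SE), with 3 cows higher and 3 lower (exact two-sided sign-flip permutation p = 0.438, where 6 cows cannot give less than 0.0313). Leaving out cow 4381 gave a mean of -0.03, leaving out cow 4345 gave -0.04 and leaving out cow 4394 gave -0.35. Cow means took up 29.3% of the variance of the log2 ratio over the 12 libraries, with an SD of 0.20 against 0.43 within cows. The SD within cows leaves out the mean change with lysine. Such a percentage does not vanish where cows do not differ, because each cow mean carries the spread of its own libraries. It is therefore not the part due to the animal. Between the control and lysine libraries of a cow the log2 ratio had Pearson r = -0.44 (exact permutation p = 0.382, adjusted p = 0.453 over 3 relations, 6 cows) and Spearman rho = -0.49 (exact permutation p = 0.356, adjusted p = 0.356). Without the 2 cows farthest from the median (4345 and 4394) r was -0.02. A relation between the ratios of a cow could thus not be shown in these data.

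The shift of the ratio was set against sequencing depth as well. Depth went partly with treatment: the total was higher in the lysine library of 5 of 6 cows. Its mean log2 change was 0.53 ± 0.68 (SE), and the group means were 17.6 M counts in control and 28.4 M in lysine libraries. The change of the log2 ratio had r = -0.33 with that of the total count (exact permutation p = 0.453, adjusted p = 0.453 over 3 relations, 6 cows) and rho = -0.77 (exact permutation p = 0.103, adjusted p = 0.263). Without cows 4319 and 4381, the farthest in depth, r was -0.05.

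PAEP and LALBA were also asked whether they moved together with lysine. On the TMM scale their log2 changes had r = 0.75 over the 6 cows (exact permutation p = 0.0917, adjusted p = 0.275 over 3 relations) and rho = 0.66 (exact permutation p = 0.175, adjusted p = 0.263). Without cows 4381 and 4383, the farthest in LALBA, r was 0.99 over the 4 cows left. Both changes share the TMM factors of the same libraries, and r was 0.39 on the scale of shares (exact permutation p = 0.450) and 0.20 with both genes taken relative to the most abundant gene (exact permutation p = 0.754). Leaving out the 2 cows farthest in LALBA on each scale gave 0.98 for shares (without 4319 and 4381). Relative to the most abundant gene it gave -0.20 (without 4319 and 4394). The relation thus depended on the scale and passed the threshold on none.

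The B code of the cows was examined because it was fixed within animals. In the 3 B2 cows (4345, 4381 and 4408) PAEP was lower with lysine in each, at a log2 fold change of -0.82 ± 0.40 (SE), and in the 3 B1 cows it was 0.43 ± 0.40. The difference between the B codes was -1.25 ± 0.57 (95% interval -2.50 to 0.005) and did not pass the threshold (edgeR interaction test, unadjusted p = 0.051, adjusted p = 0.701 over all genes). After TMM, the change of PAEP in every B2 cow lay below that in every B1 cow, as it did for 7.51% of the tested genes, and 19.3% were lower with lysine in all 3 B2 cows. The margin was narrow, with -0.46 in cow 4408 (B2) and -0.38 in cow 4319 (B1). Relative to the most abundant gene the codes overlapped, at -0.22 in cow 4408 and -0.40 in cow 4383 (B1). They also overlapped relative to the third most abundant gene, at -0.13 and -0.22 in the same cows. The test called 0 genes (0%), with 784 (6.92%) at an unadjusted p under 0.05, and DESeq2 called 39, PAEP not among them (DESeq2 adjusted p = 0.140). LALBA differed less between the codes, by -0.41 ± 0.55 (edgeR, adjusted p = 0.879), from 0.18 ± 0.39 in B1 to -0.23 ± 0.39 in B2 cows.

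The PAEP to LALBA ratio, which rests on the same PAEP counts, parted the codes too. Its log2 change was 0.25 ± 0.39 in B1 and -0.59 ± 0.49 in B2 cows (mean ± SD, n = 3 each), a difference of -0.84 with no overlap between the codes (exact two-sided permutation p = 0.1, the smallest that 3 against 3 cows can give). How often the ratios of other gene pairs part the codes in this way was not counted. In 2 of the B1 cows the change was close to 0 (0.03 in cow 4319 and 0.01 in cow 4383), as it was in 1 of the B2 cows (-0.03 in cow 4408). Averaged over both libraries of a cow, the log2 ratio itself was 1.57 ± 0.20 in B1 and 1.41 ± 0.22 in B2 cows, a difference of -0.15 (exact permutation p = 0.5) that ran from -0.03 without cow 4381 to -0.27 without cow 4383.

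The P code was lower in the lysine library of 4 cows and higher in that of cows 4394 and 4408. PAEP had a log2 fold change of -0.34 ± 0.45 (SE) in the former and 0.07 ± 0.62 in the latter, a difference of 0.41 ± 0.77 (edgeR interaction test, adjusted p = 0.946). LALBA had 0.095 ± 0.37 and -0.27 ± 0.51, a difference of -0.36 ± 0.63 (edgeR, adjusted p = 0.941) that was -0.63 without cow 4345 and -0.04 without cow 4383. Of all tested genes 0 (0%) were called in this comparison by edgeR, with 796 (7.03%) at an unadjusted p under 0.05, and DESeq2 called 114. With 2 cows in the second set, 1 with each B code, the intervals of both genes ran past a 2-fold difference.

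Differences between animals were examined next. In log2 TMM-normalised CPM, LALBA cow means had an SD of 0.48 and those of PAEP an SD of 0.36. That order turned with the scaling: by library totals the SDs were 0.23 for LALBA and 0.28 for PAEP, and without cow 4345 the TMM value of PAEP was 0.22. Neither gene passed the test of differences between cows under TMM (edgeR F test, adjusted p = 0.487 for LALBA and 0.921 for PAEP), which called 161 genes or 1.42% of those tested and had 1756 (15.5%) at an unadjusted p under 0.05. The pair split its variance differently. Cow means took up 68.9% of the variance of log2 normalised CPM for LALBA and 36.9% for PAEP. The value of LALBA was close to the median of 67.9% over the 100 most abundant genes. As for the ratio, these percentages include within-cow spread carried by the cow means and are not the part due to the animal. On the scale of shares of all counts, cow means took up 55.6% for LALBA and 30.3% for PAEP, with within-cow SDs of 0.14 and 0.46. The within-cow SDs, here and after TMM, leave out the mean change with lysine, which stays in the total variance. For the LALBA share that mean log2 change was -0.33, so the variance outside the cow means is not only scatter within cows. After TMM, within cows PAEP had an SD of 0.64, ranking 83 from the lowest among those 100 genes, while its SD of cow means ranked 21. LALBA ranked 65 within and 60 between cows, with a within-cow SD of 0.46 against a median of 0.37.

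The 2 genes were then set beside the other abundant genes of milk fat RNA, known here only by their rank. The log2 count ratio of LALBA to the third most abundant gene had an SD of 0.17 over the 12 libraries, the third lowest of the 45 pairs among the 10 most abundant genes. LALBA to the most abundant gene had the fourth lowest SD, 0.21. PAEP to LALBA ranked 15 of 45 at 0.36, and the steadiest partner of PAEP was the third most abundant gene at 0.33, which ranked 13. LALBA counts were 28.3 ± 3.47% of those of the third gene and PAEP counts 80.8 ± 17.0% (SD, n = 12, not per length). LALBA therefore kept a steadier proportion to the leading genes than PAEP did.

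Against the most abundant gene, LALBA counts were 14.7 ± 1.60% in control and 12.5 ± 1.80% in lysine libraries (mean ± SD, n = 6 each), lower in 5 of 6 cows, at a mean log2 change of -0.24 ± 0.10 (SE). Against the third gene there was little such difference, at -0.05 ± 0.12 and lower in 4 of 6 cows. PAEP was 43.8 ± 5.41% and 34.7 ± 12.1% of the most abundant gene, at -0.41 ± 0.25, lower in 4 of 6 cows. These proportions were chosen after the values had been seen and were not tested.

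**Figure D4:**
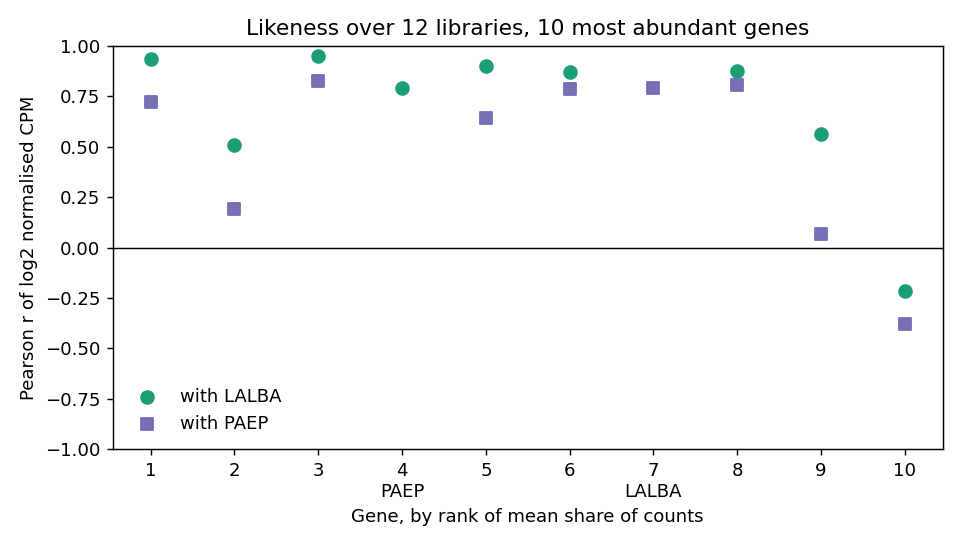
Pearson correlation of log2 TMM-normalised CPM over the 12 libraries between LALBA (circles) or PAEP (squares) and each of the 10 most abundant genes, ordered by mean share of counts. LALBA lies above PAEP for all 8 other genes, with 0.95 against 0.82 for the third gene, and both are below 0 with the tenth.

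Likeness was measured as the Pearson correlation of log2 normalised CPM over the 12 libraries, which share cows and TMM factors, among the 7357 other genes that averaged at least 5 CPM. The closest gene to LALBA was ENSBTAG00000014633 (r = 0.96, mean 36.3 normalised CPM), followed by the third most abundant gene (r = 0.95), and the most abundant gene was at rank 5 (r = 0.94). The closest to PAEP was ENSBTAG00000003829 (r = 0.93, mean 32.4 normalised CPM). With each other the 2 genes had r = 0.79, which placed PAEP at rank 166 for LALBA and LALBA at rank 114 for PAEP. Against the second most abundant gene LALBA had r = 0.51 and PAEP 0.19, and against the tenth r was -0.22 and -0.38. The median r over all those genes was -0.04 for LALBA and -0.03 for PAEP.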

How the data were processed

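Milk fat RNA of 6 cows was sequenced as 12 libraries. Fat was spun off milk and its RNA extracted with Trizol and chloroform and purified on a column, per the labels' protocols. The authors deposited 1 table of whole-number read counts per gene (24616 Ensembl IDs, 12 columns, not normalised, per the file header and values); aligner, counter, strand setting, build and annotation were not given in the sources used here. Each column carries the description of 1 sample. The RefSeq table used here (ARS-UCD2.0, 37063 genes) paired 0 IDs with a symbol, so the lists of milk protein, lactose synthesis, lactogenic and cell marker genes were not tested, other genes are given by rank or ID, and no gene positions or sequences are shown. The names LALBA and PAEP are those of the 2 IDs in the Ensembl cattle annotation as chosen.

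Genes were kept by filterByExpr (minimum count 10, applied as a CPM cutoff at the median library size, in at least 6 libraries), leaving 11323 with 99.9% of counts. edgeR 4.0.16 (R 4.3.3) fitted robust quasi-likelihood models with TMM factors (0.44 to 1.41), cow and treatment, with two-sided tests, Benjamini-Hochberg adjustment over all genes and a threshold of 0.05. SE was derived from the fold change and its F value. The interaction terms, the cow F test and the exact permutation tests (smallest p 0.0313 for 6 cows, 0.1 for 3 against 3) are as described. The libraries of a cow come from 1 animal, hence the block. Deviations of these libraries from the group means correlated at -0.02 to 0.66 within cows (median 0.19), against a median of -0.03 between cows. Only 3 of the 6 control libraries correlated best with the lysine library of their own cow. Log2 CPM used a prior count of 2. Totals had a median of 20.8 M counts. The members and lists were chosen with earlier results of these data known. Named are the 2 genes, the 10 most abundant by rank, and the closest gene to each by ID.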

Additional observations from a re-analysis of the deposited data

Results flagged for a closer look

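The change of the log2 PAEP to LALBA count ratio with lysine differed between the B codes by -0.836 (B2 minus B1): it was above 0 in the 3 B1 cows and below 0 in the 3 B2 cows. The exact permutation p of that difference was 0.1, the smallest that 3 against 3 cows allow, and the change was within 0.031 of 0 in cows 4319, 4383 and 4408. How common such a parting is among other gene pairs was not counted. No value of LALBA, PAEP or their ratio stood apart from its group by Dixon's test at the 95% level, in 17 groups of 6 values examined.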

How the results depend on the processing

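Neither gene was called for lysine, for differences between cows or for the B and P codes in any alternative run. With no replicate block, the lysine log2 fold change was 0.087 for LALBA and -0.14 for PAEP, with 0 genes called (202 at an unadjusted p under 0.05), and the log2 ratio change stayed at -0.17 (exact permutation p = 0.457); blocking changed no call. With the log2 library total as covariate, the lysine log2 fold change was -0.15 ± 0.25 (SE) for LALBA and -0.25 ± 0.35 for PAEP. With a cow left out, the lysine log2 fold change ran from -0.24 to 0.11 for LALBA and from -0.45 to 0.073 for PAEP. The B code difference ran from -0.73 to 0.024 for LALBA (reversed without cow 4383) and from -1.65 to -0.92 for PAEP, and the P code difference of PAEP from -0.12 (without cow 4394) to 0.92 and of LALBA from -0.63 to -0.04. The ratio change kept its sign, from -0.35 to -0.03, and its median over cows was -0.01. Over all genes, calls were 1 for lysine without a low-count filter. For cow (161) they were 396 with library totals only, 1518 with DESeq2, 829 without a filter, 18 with the log2 library total as covariate, and 9 (cow 4345 left out) to 429 (cow 4408), with 72 for cow 4381 and 92 for cow 4319. For the B codes (0) DESeq2 gave 39, no filter 30 and leaving out 1 cow 0 to 1 (cow 4394); for the P codes (0) 3 with library totals only, 114, 48 and 0 to 847, the 87 and 847 being for cows 4394 and 4408. Where 1 cow is left in a P set, it is assumed to vary like the others. The cause was not tested. The scale of shares for correlated changes and for variances was added after the data were seen. With 148303 counts or more per gene and library, counting error was small beside the spread between libraries.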
